A study of Mus musculus with 6 samples.

Results

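Thbs2, Cxcl12 and Notch1 are 3 genes through which bone-forming cells signal to blood vessels or use a receptor pathway that endothelium also uses. They were taken by gene identifier, through GENCODE M21, from a deposited table of 680 genes, and all 3 were found there. The rule that takes them uses gene names and no measured value, although the set was proposed with earlier results of these data known. The name of the deposited file says that every gene in it had been called changed by the authors in these same libraries. That selection is not built into the p-values given here, which are therefore smaller than they should be. The exosome group was MC3T3, a mouse pre-osteoblast line whose labels give bone as tissue and stem cells as cell type, kept for 48 hours with exosomes (small vesicles that cells release) of human umbilical vein endothelial cells, HUVEC (3 libraries). The control group was untreated MC3T3 cells, for which the labels give no mock or vesicle control treatment (3 libraries). Both groups were grown in MEM-α with 10% fetal bovine serum and antibiotics, and all libraries come from 1 cell line. The titles number the libraries as biological repeats without saying that they were separate cultures. The p-values thus reflect how far these libraries differ from each other, which may be technical.

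Thrombospondin-2, the product of Thbs2, is a secreted glycoprotein of the extracellular matrix that restrains the growth of blood vessels by acting on endothelial receptors such as CD36. CXCL12, also called SDF-1, is a chemokine made by stromal and bone-forming cells that attracts endothelial and blood-forming cells carrying its receptor CXCR4. NOTCH1 is a cell-surface receptor for Delta and Jagged ligands on neighbouring cells. Once it is cleaved, its intracellular part enters the nucleus and works with the DNA-binding protein RBPJ, and the pathway acts both in vessel sprouting and in the osteoblast lineage.

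Depth was read from the smallest step of the FPKM values (read number scaled by exon length and by depth), which gave 51315986 to 54429032 reads in the exosome libraries and 39630444 to 48369052 in the control libraries, a mean 1.20 times higher with exosomes. Of 15 osteoblast markers listed for a check of the cell type, only Dmp1 was among the 680 genes analysed here, so the label could not be tested on the others. Of 51 markers of endothelial, macrophage, adipocyte and marrow stromal, muscle and pericyte, and cartilage cells, 2 were among them. These were Actc1 and Col11a2, the first at 0.320, 0.0681 and 0.0723 FPKM in exosome libraries against 0.0624, 0.0284 and 0 in control libraries. Col11a2 had 0.103, 0.0481 and 0.119 FPKM in exosome libraries against 0.250, 0.280 and 0.165 in control libraries. The part of other cell types in the results was not tested.

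All 3 genes were lower in cells given HUVEC exosomes than in untreated cells. Thbs2 was 2.08-fold lower, Notch1 2.20-fold and Cxcl12 2.40-fold, as ratios of mean FPKM. In each of the 3 genes every exosome library lay below every control library, and each fell past an adjusted p of 0.05 in limma. Among all 680 genes 298 were called lower (43.8%), 105 higher (15.4%) and 403 in either direction (59.3%). Groups did not overlap in 591 of 680 genes (86.9%), as the selection of the table makes common. Genes that were lower without overlap numbered 436 of the 680 (64.1%). The median log2 difference of the 3 genes was −0.86, beside −0.13 over all 680. Both are on log2(FPKM + 1), which makes changes of weak genes look smaller, and the 680 include higher genes. As log2 ratios of means, Thbs2, Notch1 and Cxcl12 were at −1.06, −1.14 and −1.26. The median of 101 lower genes at 1 FPKM or more in control cells was −1.19 on that scale.

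**Figure D1:**
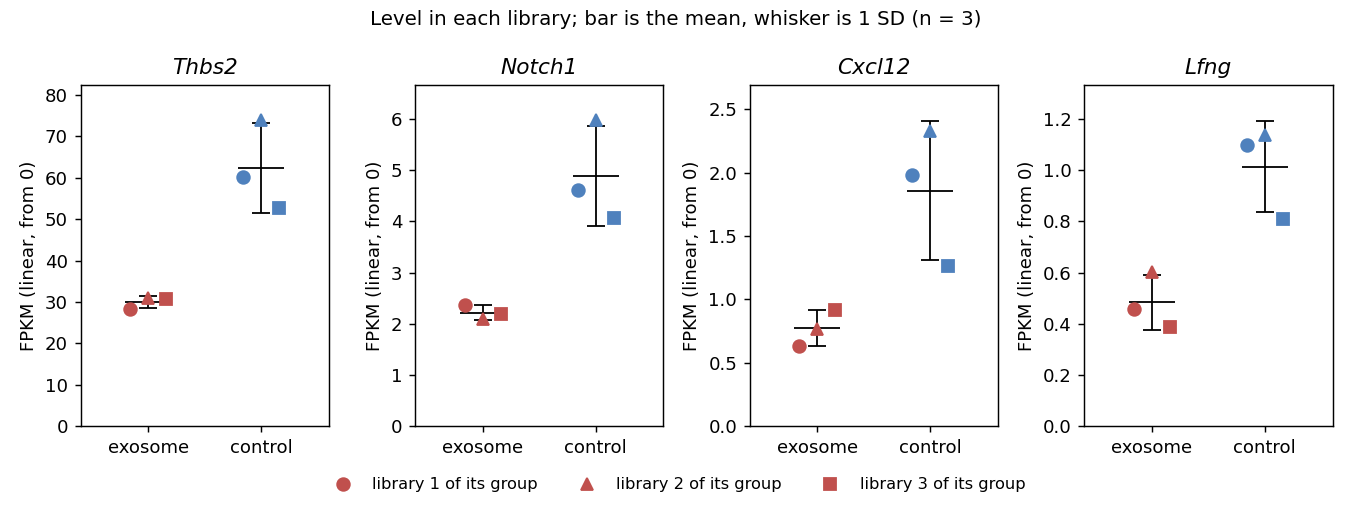
FPKM on a linear axis from 0 for Thbs2, Notch1, Cxcl12 and the Notch-modifying gene Lfng, with 1 point per library, exosome left and control right in each panel, the bar at the mean and the whisker at 1 SD (n = 3). In every panel the 3 exosome points lie below the 3 control points. The narrowest gap is in Lfng, between 0.601 and 0.809 FPKM, followed by Cxcl12, between 0.920 and 1.26 FPKM.

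The windows before the gene starts are shown because the 3 genes fell together, in a series whose title names the transcription factor ATF4. Each is the 250 bases before the start in RefSeq (GRCm38.p6), printed 5′ to 3′ on the gene's own strand. Thbs2 is at chr17:14694263-14694512 on the minus strand, Cxcl12 at chr6:117168285-117168534 on the plus strand and Notch1 at chr2:26503823-26504072 on the minus strand. For Notch1 the RefSeq start is that of its long coding transcript, and it lies 12841 bases inside the GENCODE gene, which reaches further upstream through a short transcript model. Capitals mark matches, on either strand, to the motifs searched.
Thbs2: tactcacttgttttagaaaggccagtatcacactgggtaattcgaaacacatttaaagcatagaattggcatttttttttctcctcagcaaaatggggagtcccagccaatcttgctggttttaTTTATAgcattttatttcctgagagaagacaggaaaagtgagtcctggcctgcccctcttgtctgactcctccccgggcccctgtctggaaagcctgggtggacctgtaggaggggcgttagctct
Cxcl12: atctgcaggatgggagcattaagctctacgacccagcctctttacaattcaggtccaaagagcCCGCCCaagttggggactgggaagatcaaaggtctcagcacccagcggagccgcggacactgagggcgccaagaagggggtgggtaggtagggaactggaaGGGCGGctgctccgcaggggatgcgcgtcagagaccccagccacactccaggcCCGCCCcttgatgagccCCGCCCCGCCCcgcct
Notch1: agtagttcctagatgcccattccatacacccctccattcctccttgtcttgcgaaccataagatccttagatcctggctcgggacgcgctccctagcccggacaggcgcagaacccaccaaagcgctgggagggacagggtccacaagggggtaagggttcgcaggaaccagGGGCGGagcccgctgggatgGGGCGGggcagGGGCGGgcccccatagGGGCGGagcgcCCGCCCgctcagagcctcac
The Cxcl12 and Notch1 windows hold 5 matches each to the GC box (GGGCGG, bound by SP-family factors). In Cxcl12 the last 2 of these overlap by their end bases. The Thbs2 window has none, and 32.7% of 32851 RefSeq windows of the same length hold at least 1. Its only match is a TATA box (TATAAA, in 12.4% of windows) on the opposite strand, starting 126 bases before the gene start. The base composition differs likewise, with 46.8% G and C in Thbs2, 64.4% in Cxcl12 and 66.0% in Notch1, beside a median of 52.4% over all windows. None of the 3 windows holds the letters of the composite element of ATF4 and C/EBP factors (TGATGNAAN, in 3.44% of windows), of the RBPJ motif (GTGGGAA, in 5.42%) or of the hypoxia response core (ACGTG, in 16.6%). A missing match says only that these letters are not in these windows.

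Thbs2, the matrix protein that restrains vessel growth, was the most abundant of the genes. It lies on chromosome 17 from 14665500 to 14694235 on the minus strand in GRCm38, as do all coordinates here, with 21 exon blocks that sum to 7003 bases. Its level was 28.4, 30.9 and 30.6 FPKM in the exosome libraries, against 60.2, 74.0 and 52.8 FPKM in the control libraries. The exosome values lay close together while control library 2 stood above the other 2, and the lowest control value was 1.71 times the highest exosome value. The means were 30.0 ± 1.39 FPKM with exosomes and 62.3 ± 10.8 FPKM in control cells (SD, n = 3 each). The difference in log2(FPKM + 1), a scale that makes changes of weak genes look smaller, was −1.02 ± 0.13 (SE, 95% interval −1.35 to −0.69, limma adjusted p = 0.00634). Behind these levels were 10364, 11785 and 11014 reads in the exosome libraries and 16721, 22577 and 17872 in the control libraries, so the read number was lower with exosomes although those libraries were deeper. Counting error was at most 0.982% of a value, or 1.39% if both mates of a pair were counted, against a spread between libraries of 4.63% with exosomes and 17.3% in control cells. In bulk RNA of this kind, fewer cells that express a gene and less RNA per cell cannot be told apart.

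By rank of mean level Thbs2 was number 19 of 680 in the exosome libraries and number 8 in the control libraries. Its relative change was among the smaller ones of the table. Of 101 genes that were lower with exosomes, at 1 FPKM or more in control cells and above 0 in both groups, it was number 97 when ordered from the largest fall, with a log2 ratio of means of −1.06. Notch1 was number 70 at −1.14 and Cxcl12 number 38 at −1.26. The median of these 101 genes was −1.19, with quartiles of −1.39 and −1.12. Over the 570 genes with both means above 0, the smallest absolute log2 ratio was 0.951 and 19 genes were under 1, so the table itself begins close to a 2-fold change. Thbs2 lies near that edge, while Cxcl12 fell by more than the median of the 101 genes.

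**Figure D2:**
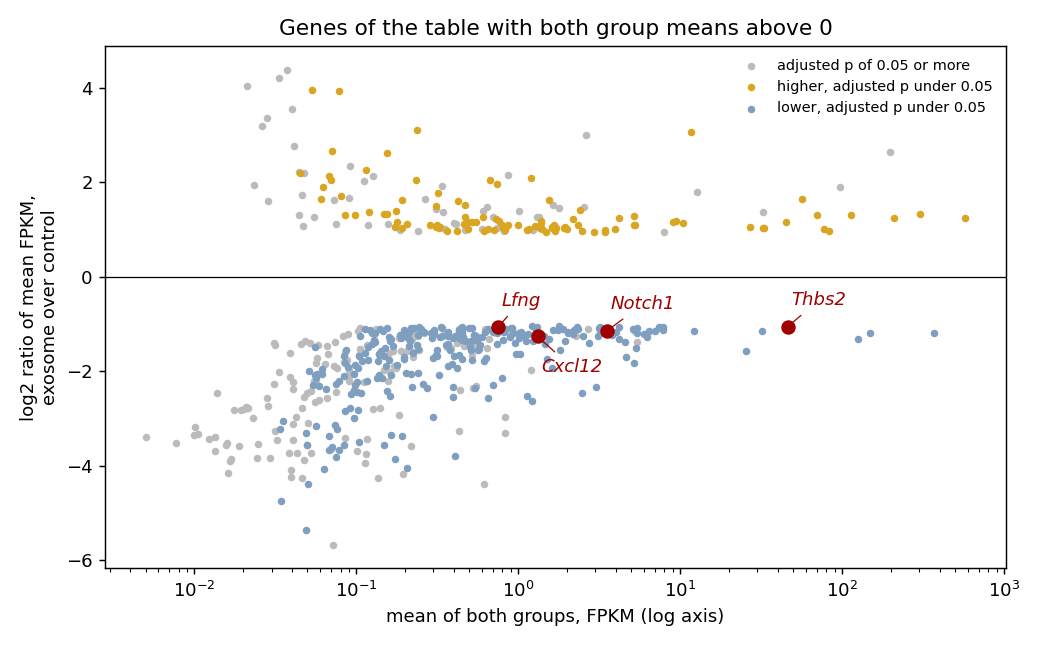
Log2 ratio of mean FPKM, exosome over control, against the mean FPKM of both groups (log axis) for the 570 genes with both means above 0, coloured by limma call. The band around 0 is empty because the table holds selected genes, and Thbs2 and Lfng, at −1.06 and −1.07, sit at its lower edge, with Notch1 at −1.14 and Cxcl12 at −1.26 further down among the other lower genes.

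Cxcl12, the chemokine, was the weakest of the 3 genes and the most variable. It lies on chromosome 6 from 117168535 to 117181367 on the plus strand, with 3 exon blocks that sum to 8176 bases. It had 0.634, 0.771 and 0.920 FPKM in the exosome libraries, against 1.98, 2.33 and 1.26 FPKM in the control libraries. Control library 3 came nearest to the exosome values, at 1.37 times the highest of them, and the control libraries spanned 1.85-fold among themselves. The means were 0.775 ± 0.143 FPKM with exosomes and 1.86 ± 0.545 FPKM in control cells (SD, n = 3 each). The log2 difference was −0.67 ± 0.16 (SE, 95% interval −1.08 to −0.27, limma adjusted p = 0.0227). These levels rest on 270, 343 and 386 reads in the exosome libraries and 643, 830 and 499 in the control libraries. Counting error reached 6.09% in the smallest library, or 8.61% if mates were counted, against a spread of 18.5% with exosomes and 29.3% in control cells. The call depended on which libraries and which model were used. The limma adjusted p was 0.0670, 0.0680 and 0.0526 without exosome library 1, 2 or 3 and 0.0571 without control library 1, while it was 0.0495 and 0.0103 without control library 2 or 3. With all 6 libraries and a replicate block it was 0.0660.

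Notch1, the receptor, lies on chromosome 2 from 26457903 to 26516663 on the minus strand, with 40 exon blocks that sum to 14232 bases. It had 2.38, 2.09 and 2.20 FPKM in the exosome libraries, against 4.60, 5.98 and 4.07 FPKM in the control libraries. As in Thbs2, the exosome values were tight and control library 2 was the highest, and the lowest control value was 1.72 times the highest exosome value. The means were 2.22 ± 0.145 FPKM with exosomes and 4.89 ± 0.981 FPKM in control cells (SD, n = 3 each). The log2 difference was −0.86 ± 0.13 (SE, 95% interval −1.18 to −0.54, limma adjusted p = 0.00849). The reads numbered 1762, 1617 and 1607 in the exosome libraries and 2597, 3706 and 2805 in the control libraries. The antisense transcripts 0610009E02Rik and Gm13568 overlap the 3′ end of Notch1 and share 1068 and 414 of its exon bases (7.50% and 2.91%). The sources used here do not say if counting used strand, so reads from that stretch cannot be told apart, and neither antisense gene is among the 680 analysed here. No annotated gene overlaps Thbs2 or Cxcl12, and the nearest gene on either side of each of the 3 is not among the 680.

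Two-sided exact permutation tests over the 6 libraries gave p = 0.10 for Thbs2, Cxcl12 and Notch1 alike, the smallest value that 3 libraries against 3 can give. Any gene whose groups do not overlap gets this value, and groups did not overlap in 591 of the 680 genes (86.9%). The median of log2(FPKM + 1) over the table was 0.15 lower in exosome than in control libraries. Relative to that shift, in a fit with each library centred on its median, Thbs2 differed by −0.87, Notch1 by −0.71 and Cxcl12 by −0.53 on the log2 scale (limma adjusted p = 0.00591, 0.00843 and 0.0382). The table holds selected genes, more of them called lower than higher. Its median therefore depends on that selection and cannot stand for a shift of whole libraries.

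Of 48 genes in a Notch pathway list (receptors, ligands, proteases, modifiers and targets), 3 were among the 680 analysed here, with 2 called lower and none higher, beside 43.8% called lower over all 680, so this count says nothing particular about the list. Beside the receptor itself these were Lfng and Dtx1. Lfng encodes lunatic fringe, a Golgi enzyme that adds sugars to the extracellular repeats of Notch receptors and so changes their response to Delta and Jagged ligands. It had 0.460, 0.601 and 0.389 FPKM in the exosome libraries, against 1.10, 1.14 and 0.809 FPKM in the control libraries. The groups did not overlap, and the means were 0.483 ± 0.108 FPKM with exosomes and 1.01 ± 0.179 FPKM in control cells (SD, n = 3 each). The log2 difference was −0.44 ± 0.09 (SE, limma adjusted p = 0.0162) and −0.29 relative to the shift of the table. It rests on 60, 82 and 50 reads in exosome libraries and 109, 124 and 98 in control libraries, and without exosome library 3 the limma adjusted p was 0.0507. Lfng lies on chromosome 5 from 140607320 to 140615545.

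Dtx1 encodes deltex, a ubiquitin ligase that binds the intracellular part of Notch. It was listed at 0 FPKM in the 3 exosome libraries, where 3 reads would be 0.0105 to 0.0111 FPKM, and at 0, 0.0436 and 0.0235 FPKM in the control libraries, from 0, 10 and 6 reads. The groups overlapped, and with 16 reads in all it was not called (limma adjusted p = 0.283). With library medians centred its log2 difference turned positive, at 0.11, because the 0.15 that centring adds is larger than its difference of −0.03. Dtx1 then passed as higher (limma adjusted p = 0.01995), a call that comes from the centring, since all 3 exosome libraries were at 0 FPKM. In limma-voom on recovered reads it was called lower (adjusted p = 0.0198). With 16 reads in all, no change of Dtx1 is claimed in either direction.

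The ligands, proteases, RBPJ and the Hes and Hey targets of the pathway are not among the 680 genes and were not analysed here. Thbs2 was the only 1 of 18 genes for thrombospondins, their receptors and their handling, and Cxcl12 the only 1 of 7 for the CXCL12 ligand, its receptors and related genes. None of 46 other secreted factors that act on endothelium was among the 680, a list that includes Vegfa, Angpt1, Fgf2 and Pdgfb.

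Within every library the level per exon length was highest in Thbs2, followed by Notch1 and then Cxcl12, and the 3 ranges did not touch in either group. The place of Cxcl12 depends on which of its transcripts the cells made. GENCODE M21 lists 3 coding transcripts of Cxcl12, from 1878 to 5627 bases. If all reads came from the shortest, its FPKM would be 3.37 ± 0.624 with exosomes and 8.09 ± 2.37 in control cells (SD, n = 3 each). The corresponding FPKM of Notch1 over its longest coding transcript of 9488 bases would be 3.33 ± 0.217 with exosomes and 7.33 ± 1.47 in control cells, so these neighbours would not differ beyond their spread. Notch1 has a further annotated coding transcript of only 512 bases, and if all its reads came from that model its FPKM would be 61.7 ± 4.03 with exosomes and 136 ± 27.3 in control cells, above Thbs2. Thbs2, with 1 coding transcript of 5895 bases, would be at an FPKM of 35.6 ± 1.65 with exosomes and 74.1 ± 12.8 in control cells, above Cxcl12 and above Notch1 over its long transcript. The relative changes do not depend on these lengths as long as both groups used the same transcripts, which was not tested.

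Ratios between 2 of the genes within a library do not depend on how that library was scaled, and they asked whether 1 gene fell more than another. The Thbs2 to Notch1 ratio of FPKM was 12.0, 14.8 and 13.9 in the exosome libraries, against 13.1, 12.4 and 12.9 in the control libraries. The groups overlapped, and the mean log2 ratio differed by 0.08 ± 0.10 (SE, two-sided exact permutation p = 0.50, 0.60 adjusted over 3 pairs). The exact 90% interval ran from −0.13 to 0.26. The Thbs2 to Cxcl12 ratio was 44.8, 40.1 and 33.3 with exosomes, against 30.4, 31.8 and 41.8 in control cells. It differed by 0.19 ± 0.19 on the log2 scale (SE, 90% interval −0.33 to 0.56, exact permutation p = 0.30, adjusted 0.60). The Cxcl12 to Notch1 ratio was 0.267, 0.369 and 0.418 with exosomes, against 0.431, 0.390 and 0.310 in control cells. Its log2 difference was −0.11 ± 0.24 (SE, 90% interval −0.69 to 0.43, exact permutation p = 0.60, adjusted 0.60). No pair passed a test of unequal change, which does not show equal change, since the intervals with Cxcl12 are wide and 0.10 was the smallest p the design allows.

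**Figure D3:**
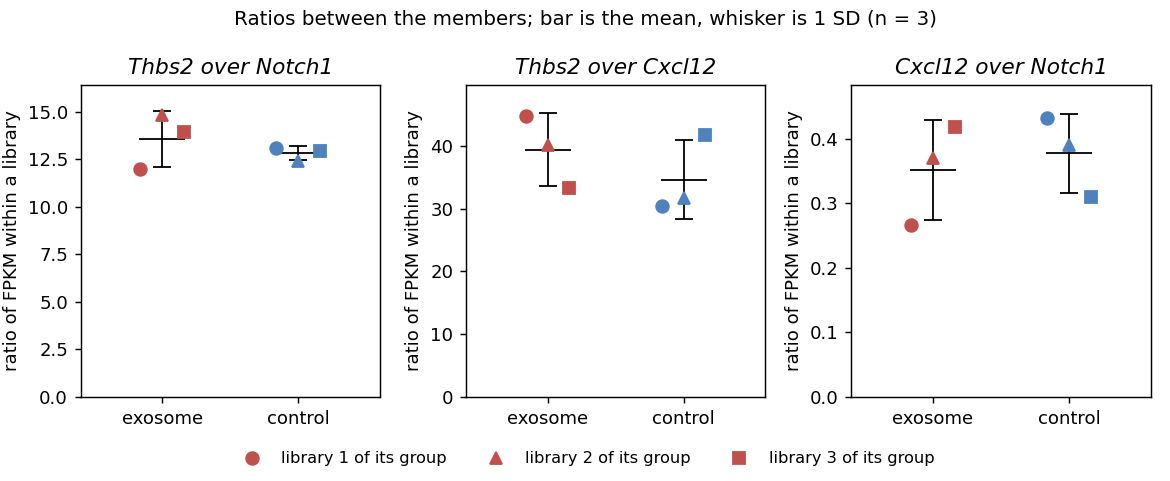
Ratio of FPKM within each library for the 3 pairs of genes, on linear axes from 0, exosome left and control right, with the bar at the mean and the whisker at 1 SD (n = 3). The exosome and control points overlap in each panel, most tightly in Thbs2 over Notch1, where all 6 libraries lie between 12.0 and 14.8.

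The control libraries had the same order in all 3 genes, with library 2 highest, library 1 next and library 3 lowest. This did not follow depth, which was greatest in library 3. It was seen in 40 of the 101 lower genes at 1 FPKM or more in control cells (39.6%) and in 9 of 71 higher genes at 1 FPKM or more in exosome-treated cells (12.7%). The exosome libraries had no common order, since the highest was library 2 for Thbs2, library 3 for Cxcl12 and library 1 for Notch1.

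Profiles over the 6 libraries were compared by the root mean square difference of log2 FPKM, each gene centred on its own mean, against the 73 other named genes that averaged 1 FPKM or more. Nearest to Notch1 were Ror1, a Wnt-binding receptor tyrosine kinase-like protein, at 0.0530, Bmf, a pro-apoptotic member of the BCL-2 family, at 0.0551 and the protocadherin gene Pcdh18 at 0.0851. Nearest to Thbs2 were Ror1 at 0.0804 and the chloride channel regulator family gene Clca1 at 0.0971. Notch1 was number 5 for Thbs2 and Thbs2 number 6 for Notch1, at 0.103, beside median distances of 0.335 and 0.312 over the genes compared. Cxcl12 stood further off, with Fam20c, a kinase of secreted proteins, at 0.121, the neuron navigator gene Nav2 at 0.170 and Adamtsl4, a secreted glycoprotein gene, at 0.177. From Cxcl12 the distances to Thbs2 and Notch1 were 0.213 and 0.246, as number 8 and number 15 of 73, and its median distance was 0.384. These neighbours were all lower with exosomes, and the profiles share their libraries and the selection of the table, so the distances are a description only. Ror1, for example, had 0.852, 0.823 and 0.778 FPKM in exosome libraries, against 1.64, 2.14 and 1.50 FPKM in control libraries, the same order of control libraries as Notch1.

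**Figure D4:**
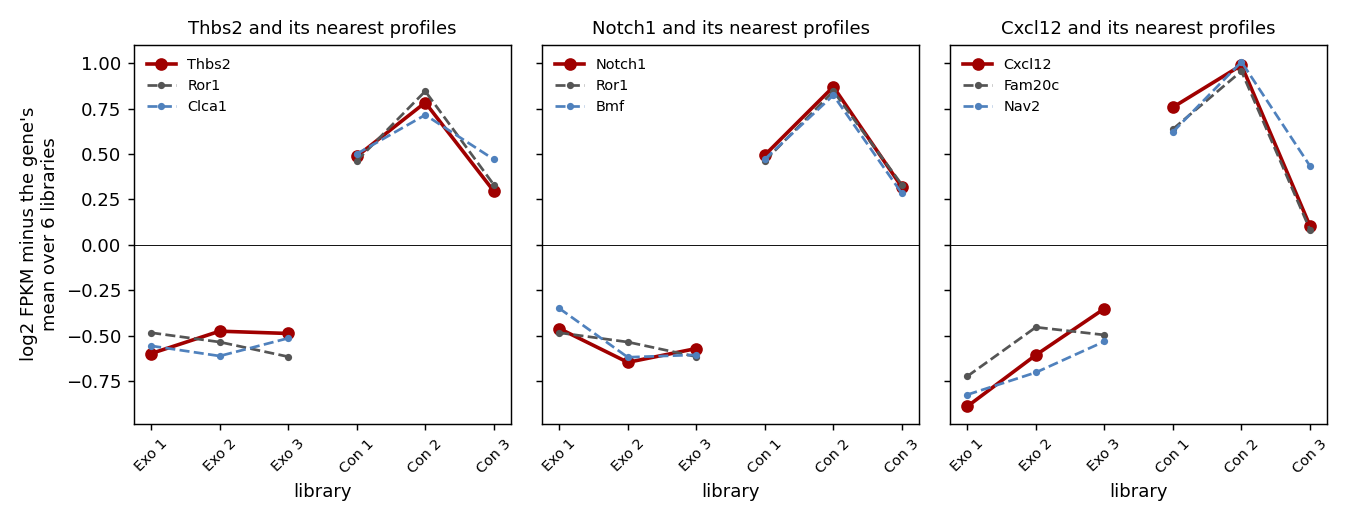
Log2 FPKM of each gene minus its mean over the 6 libraries (exosome libraries Exo 1 to Exo 3, then control libraries Con 1 to Con 3), for Thbs2, Notch1 and Cxcl12 (solid) and the 2 nearest profiles of each (dashed). The curves of Notch1 and Ror1 lie almost on each other, at a distance of 0.0530, while those around Cxcl12 are looser, at 0.121 and 0.170.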

How the data were processed

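RNA of 3 exosome-treated and 3 control libraries was sequenced; per the labels' protocols it was taken up in Trizol and prepared with a SMARTer mRNA kit. The deposited values were FPKM, per the name of the deposited file, which also says that the authors kept only genes they had called changed. Aligner, counter, build, annotation, caller and threshold are not given in the sources used here. GENCODE M21 (GRCm38) matched 672 of 680 identifiers, and the authors' build may differ. FPKM times summed exon length gave whole reads, within 0.02, in all libraries for 661 genes, including the genes named here. Among 1691 values of 2 to 21 reads, even numbers made up 74.7%, as counting both mates of a pair would give. Counting errors cover counting only.

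The main test was limma 3.58.1 (R 4.3.3) on log2(FPKM + 1), group as its only term, Benjamini-Hochberg adjusted over 680 genes, threshold 0.05. Ratios were tested by exact permutation, adjusted with scipy 1.17.1. An exact 90% interval holds the shifts not rejected at 0.10. The scripts were tested on simulated data. Profile neighbours were the 3 nearest genes with a symbol, a mean of at least 1 FPKM and no library at 0, without predicted models, pseudogenes or Y-linked genes; 1 of them is not reported here. The genes and gene lists were chosen with earlier results of these data known. Alternatives were other pseudocounts, an FPKM minimum, median centring, a trended and robust prior, a replicate block, limma-voom on recovered reads, read ratios and leaving out each library. Values for Lfng and Dtx1 under these were added after seeing the data. Motif matches were sought in RefSeq promoter windows (GRCm38.p6).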

Additional observations from a re-analysis of the deposited data

How the results depend on the processing

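Thbs2 and Notch1 stayed lower and past the threshold in all 13 alternatives (highest limma adjusted p = 0.0268 and 0.0356; log2 differences −1.13 to −0.87 and −1.12 to −0.71). Cxcl12 stayed lower in all 13 but lost its call in 5, 1 of them with the replicate block (−0.67, limma adjusted p = 0.0660). The other 4 were among the 6 fits without 1 library, where fewer samples enter (−0.73 to −0.61, limma adjusted p 0.0526 to 0.0680). Over all 6 such fits Cxcl12 ran from −0.83 to −0.55 (limma adjusted p 0.0103 to 0.0680). The cause of the loss under the block was not tested. Lfng stayed lower in all 12 and lost its call in 1, without exosome library 3 (−0.39). Without 1 library Thbs2 ranged over −1.13 to −0.89 and Notch1 over −0.96 to −0.73. The count of called genes, 403 in the main test (105 higher, 298 lower), was 611 with a pseudocount of 0.01, 624 by limma-voom on recovered reads, 201 with the replicate block, 131 of 138 when only genes averaging 1 FPKM or more were tested, and 164 to 356 without 1 library. Median centring gave 324 (212 higher, 112 lower). Deviations from the group means correlated at −0.135, 0.0767 and −0.222 between libraries of the same number. Between libraries of unlike number the correlations ran from −0.242 to 0.367. Deviations within a group cancel out, which ties these correlations to each other, so they cannot settle pairing. The labels do not say that equal numbers belong together, and the numbers were not taken to pair the libraries. A pseudocount of 1 turned the sign of all 3 ratio differences, to −0.16 for Thbs2 to Notch1, −0.35 for Thbs2 to Cxcl12 and 0.19 for Cxcl12 to Notch1, since it shrinks the change of the weaker gene more. Without 1 library the ratio differences ran from 0.01 to 0.17, from 0.09 to 0.33 and from −0.25 to 0.07, the last reaching 0.0738 without exosome library 1. Dtx1 reversed to 0.11 with centring (limma adjusted p = 0.01995), through the shift that centring adds. The limits are 3 libraries a group, a table of selected genes and an unknown build. Cxcl12 rests on 270 to 386 reads in each exosome library, and no list member outside the table could be assessed.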
